A study of Mus musculus with 4 samples.

Results

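The genes described here are 60 mouse detoxification enzymes: 21 soluble glutathione transferases, 3 microsomal glutathione transferases, 20 aldehyde dehydrogenases and 16 carboxylesterases. They are read by 85 probes, out of 27597 genes and 41174 probes on the array. They were taken by symbol (Gst of the alpha, kappa, mu, omega, pi, theta and zeta classes, Mgst, Aldh and Ces), so Aldh2, whose symbol has another form, is not among them. The families were chosen by the difference between Wnt3A and Control arrays in the deposited intensities, which was already known. The differences and adjusted p-values below are therefore a description of these genes and no independent test of them.

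RNA came from OP9, a stromal cell line derived from mouse bone marrow that is used to support blood progenitors in culture. All cells carried the retroviral vector LZRS-IRES-GFP. In the Wnt3A group (2 arrays) the vector held the Wnt3A gene, and in the Control group (2 arrays) it held no such insert. The labels call the arrays of a group separate replicates without naming separate cultures, so the p-values measure only the spread between these samples. They do not say what drives Wnt3A in the vector or whether each line is 1 clone.

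Glutathione transferases couple the tripeptide glutathione to reactive, fat-soluble molecules, and the microsomal members do so from within membranes and also reduce lipid peroxides. Aldehyde dehydrogenases oxidise aldehydes to acids, some clearing the aldehydes left by lipid peroxidation, others making retinoic acid or serving folate and amino acid metabolism. Carboxylesterases cut ester bonds in drugs and in stored lipids. Many of these genes are known for their levels in liver, and several carboxylesterases are also active in fat cells.

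Levels are given as log2 intensity relative to the 75th percentile of the same array, so 0 is a bright probe and a step of 1 is a factor of 2. On the deposited scale, 83.7% and 80.7% of spots in the Wnt3A arrays and 81.8% and 82.0% in the Control arrays were above an estimated detection floor. The only Wnt3a probe read -8.74 and -5.32 in the Wnt3A arrays and -8.28 and -8.56 in the Control arrays, above the floor only in Wnt3A replicate 2. The scanner files deposited for the same 4 samples went against their labels as OP9 cells in the median ranks of marker lists. In the table, 20 stromal markers had a median rank at percentile 91.8 to 94.1 of each array and 15 macrophage markers one at 45.5 to 48.5. In the scanner files the stromal median was at percentile 54.8 to 70.7 and the macrophage median at 71.1 to 87.2. Lox, a collagen cross-linking enzyme of the stromal list, ranked at percentile 1.58 to 12.5 by scanner. The stromal markers were not all low there: the matrix gene Fn1 ranked at 86.4 to 94.0 and S100a4 at 92.5 to 98.2. Laptm5, a blood cell gene of the macrophage list, ranked at 20.1 to 27.4 of the deposited columns and at 91.9 to 99.2 by scanner. The macrophage markers were not all high by scanner: Mrc1 ranked at 7.66 to 58.7 there and C1qa at 50.76 to 61.35. The results below therefore use the table, with the scanner values as an alternative. By those columns, 19 of the 20 stromal markers were above the floor on all 4 arrays, and Lum, which codes for the matrix proteoglycan lumican, was above it on none.

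**Figure D1:**
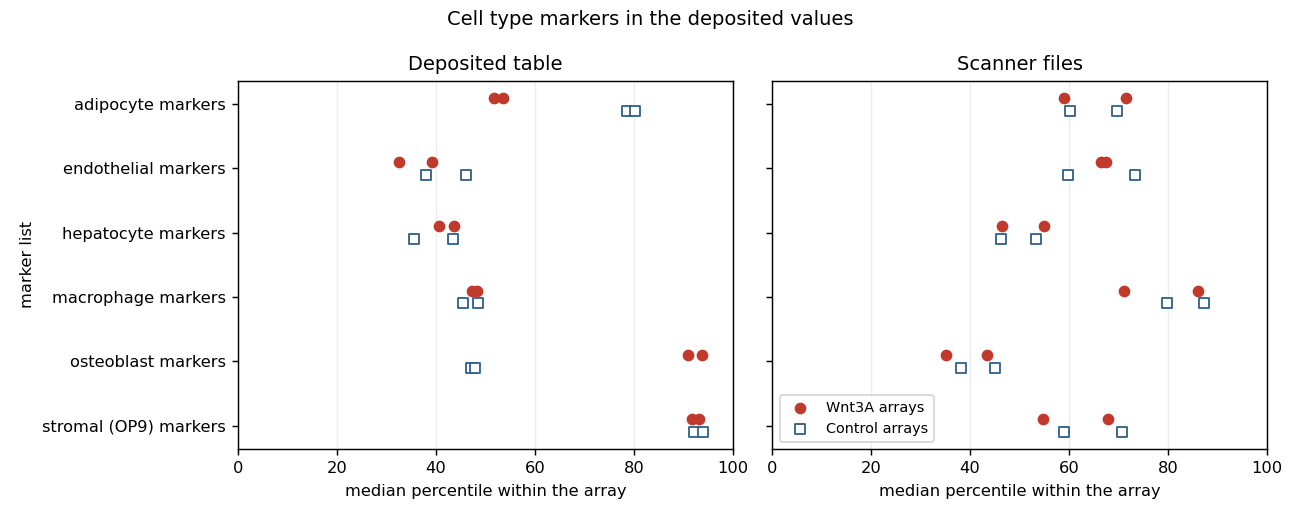
Median percentile within each array (horizontal axis) of 6 lists of cell type markers, in the deposited table (left) and the scanner files (right), with filled circles for the 2 Wnt3A arrays and open squares for the 2 Control arrays. Stromal markers lie at 91.8 to 94.1 in the table and at 54.8 to 70.7 in the scanner files.

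Across the 60 genes the difference between group means, Wnt3A minus Control, ran from -7.77 to 4.17 on the log2 scale. It was negative for 44 genes and positive for 16, where 53.7% of all genes on the array had a negative difference. The balance was the other way in the scanner files: 15 of 49 tested members were negative, with a median of 0.38, by processed signal and 13 of 49, with a median of 0.45, by normexp with quantiles. Both Wnt3A arrays lay below both Control arrays for 36 genes, against 21.7% of all genes on the array. They lay above both Control arrays for 7, against 19.4% of all genes. For Ces1b and Ces2e, counted among the 36, no array was above the floor, so the order of their values carries no information. The median difference was -0.80 over the 60 genes. It was -0.69 with those 2 left out and each gene that was above the floor in only 1 group set at its bound, and the median of all genes on the array was -0.05.

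Of the 56 genes with a probe above the floor on both arrays of a group, 4 had a lower mean in the Wnt3A group with an adjusted p below 0.05, by limma fitted over 22859 genes. They were Ces1f, Mgst2, Aldh3a1 and Gstt1, 1 from each family, and 0.306% of all genes tested were lower by the same rule. No member was higher by that rule, where 0.455% of all genes tested were. At an unadjusted p under 0.05 in the same fit, 22 members were lower and 2 were higher, where 6.94% of all genes were lower and 6.78% higher. Leaving out Wnt3A replicate 1, Wnt3A replicate 2, Control replicate 1 or Control replicate 2 left 0 members past the adjusted threshold in each case, with 15 to 23 lower and 1 to 3 higher at an unadjusted p under 0.05. Of all 22859 genes likewise 0 passed the adjusted threshold in each case, and 10.3% to 13.0% had an unadjusted p under 0.05 in either direction. In the scanner files 0 of 49 members tested passed the adjusted threshold, where 0.00964% of genes did. There, 1 member was lower at an unadjusted p under 0.05, where 2.58% of genes were past that threshold in either direction.

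**Figure D2:**
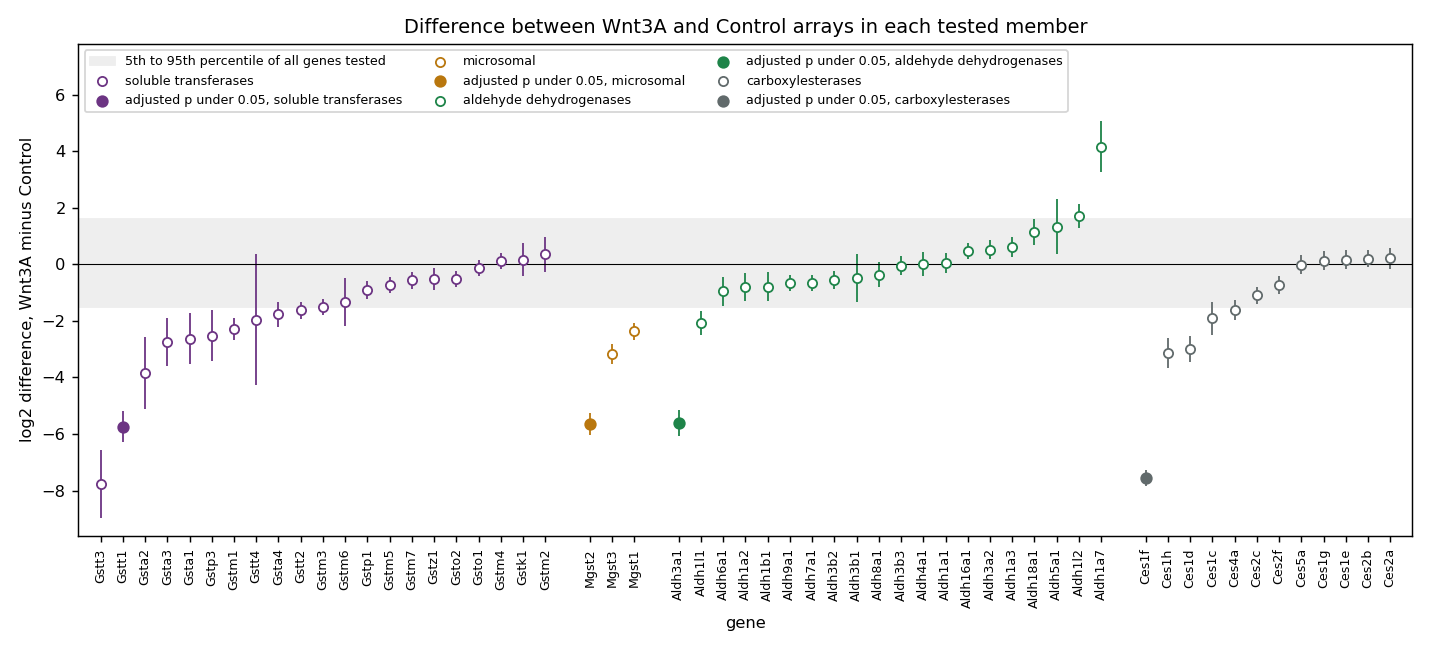
Log2 difference between the means of the Wnt3A and Control arrays (vertical axis) for each of the 56 tested genes, ordered within 4 families, with bars for 1 standard error. Filled points have an adjusted p under 0.05 and the grey band spans the 5th to 95th percentile of all genes tested, -1.50 to 1.60. The 4 filled points lie between -7.55 and -5.63.

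The soluble transferases were below the Control arrays in 15 of 21 genes and above them in 0, with a median difference of -1.50. Of all genes tested, 23.7% lay below and 21.5% above. The theta class, which acts on small halogenated molecules among others, held the lowest values. Gstt1 read -5.98 and -4.75 in the Wnt3A arrays, against 0.07 and 0.67 in the Control arrays. Both Wnt3A arrays were close to the floor while both Control arrays were bright, and the difference was -5.74 ± 0.54 (SE, adjusted p = 0.0444). Gstt3 read -4.23 and -7.68 in the Wnt3A arrays, against 1.97 and 1.67 in the Control arrays. Wnt3A replicate 2 was below the floor for Gstt3 and the Wnt3A arrays lay far from each other. The difference of -7.77 ± 1.21 had an adjusted p of 0.109. Gstt2 read -2.09 and -1.96 in the Wnt3A arrays, against -0.24 and -0.58 in the Control arrays, a difference of -1.62 (adjusted p = 0.141). Gstt4 overlapped between the groups by its brightest probe, at -6.95 and -2.15 in the Wnt3A arrays and -5.00 and -0.20 in the Control arrays, with Wnt3A replicate 1 below the floor. A second Gstt4 probe was below the floor on both Wnt3A arrays and at -5.69 and -2.40 in the Control arrays. In the scanner files Gstt1 had a difference of the opposite sign, 1.36, and Gstt3 one of -3.50.

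The Gstt1 probe is shown because it carries the call of the class. It is placed on chromosome 10 of mouse build mm8 (chr10:75230664-75237828), by coordinates in falling order, as for a gene on the minus strand. The interval is longer than the probe.
Gstt1: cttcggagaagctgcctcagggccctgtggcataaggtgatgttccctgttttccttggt

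All 4 alpha class genes were lower in both Wnt3A arrays than in both Control arrays, as were 23.7% of all genes tested, and none passed the adjusted threshold. Enzymes of this class are abundant in liver, and Gsta4 acts on aldehydes from lipid peroxidation. Gsta2 read 0.56 and -1.39 in the Wnt3A arrays, against 4.95 and 1.89 in the Control arrays, a difference of -3.84 ± 1.27 (adjusted p = 0.323). Gsta1 read 1.96 and 1.26 in the Wnt3A arrays, against 5.43 and 3.03 in the Control arrays, a difference of -2.62. Gsta3 read -2.55 and -1.26 in the Wnt3A arrays, against 1.81 and -0.16 in the Control arrays, a difference of -2.74. Control replicate 1 was the higher Control array for each of these genes. Gsta4 read 2.63 and 2.45 in the Wnt3A arrays, against 4.80 and 3.80 in the Control arrays, a difference of -1.76 (adjusted p = 0.219). Without Control replicate 1 the difference of Gsta2 was -2.31, and without Control replicate 2 it was -5.37.

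The Gsta1 and Gsta2 probes are shown because they overlap in sequence, so each may read RNA of both genes. Capitals mark the 28 bases over which they line up, of which 27 are the same. The Gsta1 probe lies at chr9:78021721-78025202 and the Gsta2 probe at chr9:78119521-78119580 (mm8), in rising and falling order of coordinates.
Gsta1: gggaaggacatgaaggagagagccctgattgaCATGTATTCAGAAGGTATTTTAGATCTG
Gsta2: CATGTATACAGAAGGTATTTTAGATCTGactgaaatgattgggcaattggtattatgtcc

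Of the 7 mu class genes, 4 were below the Control arrays, where 23.7% of all genes tested were, and 3 overlapped, with a median difference of -0.72. Gstm1, a major enzyme of this class in mouse liver, read 2.23 and 1.46 in the Wnt3A arrays, against 4.02 and 4.22 in the Control arrays. The difference was -2.27 (adjusted p = 0.125) by this probe and -1.20 by a dimmer one. Gstm3 read 1.01 and 1.11 in the Wnt3A arrays, against 2.48 and 2.63 in the Control arrays, with replicates close together and a difference of -1.50 (adjusted p = 0.142). Gstm5 and Gstm7 differed by -0.72 and -0.57, while Gstm2, Gstm4 and Gstm6 overlapped. The mu genes are close relatives, and probes of Gstm5 and Gstm6 share 27 of 36 aligned bases.

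Gstp1, the main pi class enzyme, read 5.04 and 5.05 in the Wnt3A arrays, against 6.20 and 5.70 in the Control arrays, a difference of -0.91 (adjusted p = 0.346). Its relative Gstp3 read -5.01 and -5.16 in the Wnt3A arrays, against -1.30 and -3.81 in the Control arrays, with the Control arrays far from each other. The omega, kappa and zeta classes have other main tasks. Gsto1, which reduces dehydroascorbate, differed by -0.14 and overlapped, and Gstk1, found in mitochondria and peroxisomes, differed by 0.17 and overlapped. Gstz1, an isomerase of tyrosine breakdown, differed by -0.52, and Gsto2 by -0.51 with a second probe of the opposite sign.

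**Figure D3:**
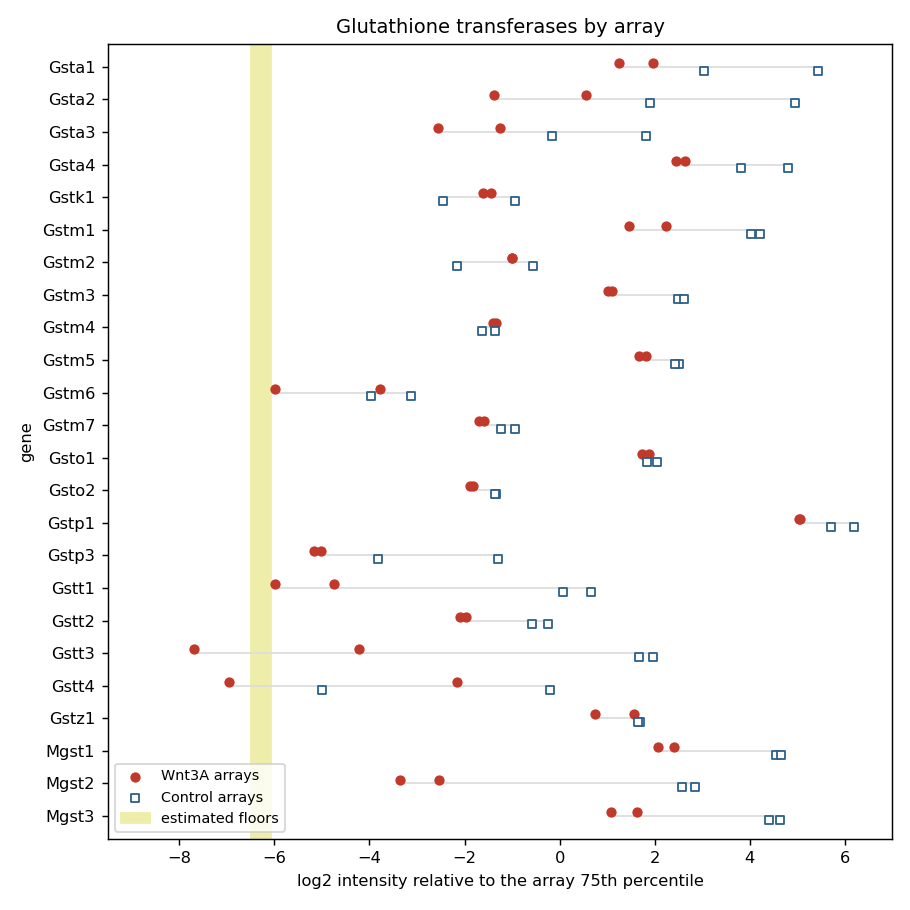
Level of each glutathione transferase gene (rows) on each array, as log2 intensity relative to the array's 75th percentile (horizontal axis), with filled circles for the 2 Wnt3A arrays, open squares for the 2 Control arrays and a band for the estimated floors. No gene has both Wnt3A arrays above both Control arrays.

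All 3 microsomal transferases were lower in both Wnt3A arrays, where 23.7% of all genes tested were, with a median difference of -3.17. Mgst2, which also joins glutathione to leukotriene precursors, read -2.54 and -3.35 in the Wnt3A arrays, against 2.84 and 2.57 in the Control arrays. The groups were much farther apart than their replicates, and the difference was -5.65 ± 0.40 (SE, adjusted p = 0.0273). Mgst3, an enzyme of lipid peroxide reduction, read 1.62 and 1.07 in the Wnt3A arrays, against 4.40 and 4.64 in the Control arrays, a difference of -3.17 ± 0.34 (adjusted p = 0.0569). Mgst1, found in the endoplasmic reticulum and the outer mitochondrial membrane, read 2.07 and 2.40 in the Wnt3A arrays, against 4.55 and 4.66 in the Control arrays, a difference of -2.37 ± 0.30 (adjusted p = 0.0723). The groups of each gene were well apart. Further probes had the same sign: 2 for Mgst3 gave -2.16 and -3.19, with the probe at -3.19 below the floor in Wnt3A arrays, and 1 for Mgst1 gave -2.39. With a floor 2 times as high Mgst3 passed at an adjusted p of 0.0444, and with a trended and robust variance Mgst3 and Mgst1 passed at 0.0175 and 0.0173. In the scanner files Mgst2 had a difference of 0.51, the opposite sign.

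The probes of the 3 microsomal genes are shown because all 3 genes lay below the Control arrays. They are placed at chr6:138120416-138120475 for Mgst1, chr3:51770456-51770515 for Mgst2 and chr1:169212169-169213979 for Mgst3 (mm8), on 3 chromosomes, and no 2 of them lined up over at least 25 bases with 75% the same.
Mgst1: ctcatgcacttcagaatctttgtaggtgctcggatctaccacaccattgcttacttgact
Mgst2: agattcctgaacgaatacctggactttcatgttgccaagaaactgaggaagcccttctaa
Mgst3: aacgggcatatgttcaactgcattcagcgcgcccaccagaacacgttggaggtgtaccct

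Among the 20 aldehyde dehydrogenases, 8 lay below the Control arrays, 6 above and 6 overlapped, and the median difference was -0.20. The shares of all genes tested were 23.7% below and 21.5% above. Aldh3a1, which oxidises aromatic and lipid-derived aldehydes and is best known from the cornea, read -2.61 and -2.73 in the Wnt3A arrays, against 3.49 and 2.42 in the Control arrays. Both Control arrays were bright and both Wnt3A arrays were well below the 75th percentile, a difference of -5.63 ± 0.46 (SE, adjusted p = 0.0363). Its neighbour Aldh3a2, the fatty aldehyde dehydrogenase, had a small difference of the other sign, at 0.58 and 0.68 in the Wnt3A arrays and 0.40 and -0.18 in the Control arrays (difference 0.52, adjusted p = 0.604). The 3 genes of the Aldh3b group differed by -0.55 to -0.05, with Aldh3b1 and Aldh3b3 overlapping. In the scanner files the difference of Aldh3a1 was 1.34, the opposite sign.
Aldh3a1: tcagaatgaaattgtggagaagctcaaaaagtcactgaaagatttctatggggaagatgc
This Aldh3a1 probe, shown as the reporter of the only call in the family, lies at chr11:61031763-61032493 (mm8).

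The retinoic acid-forming enzymes Aldh1a1, Aldh1a2 and Aldh1a3 differed little. Aldh1a1 read -2.60 and -2.13 in the Wnt3A arrays, against -2.22 and -2.60 in the Control arrays, and overlapped. Aldh1a2 differed by -0.80 and Aldh1a3 by 0.62, neither past the threshold, and the sign of Aldh1a3 was the opposite in the scanner files (-1.38). Aldh1a7, a rodent relative of Aldh1a1, had the highest difference of all 60 genes. It read -2.51 and -4.85 in the Wnt3A arrays and was below the floor on both Control arrays, at -8.30 and -7.40. Against the floor it was at least 5.72-fold higher in Wnt3A arrays (adjusted p = 0.179), a bound that depends on the estimated floor and was 2.55-fold without Wnt3A replicate 1 and 12.8-fold without Wnt3A replicate 2. The p-value rests in part on the Control values below the floor.

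The folate enzymes were split. Aldh1l2, the mitochondrial formyltetrahydrofolate dehydrogenase, read 3.84 and 3.55 in the Wnt3A arrays, against 2.41 and 1.54 in the Control arrays (difference 1.72 ± 0.41, adjusted p = 0.210). Its cytosolic counterpart Aldh1l1 read -0.25 and -0.54 in the Wnt3A arrays, against 1.25 and 2.13 in the Control arrays (difference -2.08, adjusted p = 0.162). Neither pair of groups overlapped, although the probes of Aldh1l2 and Aldh1l1 share 30 of 36 aligned bases. Aldh18a1, which makes the precursor of proline, read 1.85 and 1.57 in the Wnt3A arrays, against 1.08 and 0.05 in the Control arrays (difference 1.14, adjusted p = 0.398). Aldh4a1, which acts in proline breakdown, differed by 0.01 and overlapped. Aldh5a1, the succinic semialdehyde dehydrogenase, read 0.71 and -1.94 in the Wnt3A arrays, against -1.59 and -2.32 in the Control arrays. Its difference of 1.34 rested on Wnt3A replicate 1, without which it was 0.02. Of the remaining genes, Aldh6a1, Aldh1b1, Aldh9a1 and Aldh7a1 were lower by differences of -0.95 to -0.64, Aldh16a1 was higher by 0.47 and Aldh8a1 overlapped, none past the threshold.

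Among the 16 carboxylesterases, 10 lay below the Control arrays, 1 above and 5 overlapped, where 21.7% of all genes on the array lay below and 19.4% above. The 10 include Ces1b and Ces2e, with no array above the floor, and Ces3b, with Control replicate 2 alone above it. The median difference was -1.06, or -0.61 over the 14 genes with an array above the floor and with those above it in only 1 group set at their bound. Ces1b, Ces2e, Ces2g and Ces3b were not tested, since no group had both arrays above the floor. Ces1f, a liver and fat cell enzyme that has been linked to triacylglycerol hydrolysis, read -8.46 and -8.24 in the Wnt3A arrays, both below the floor, against -0.74 and -0.85 in the Control arrays. Against the floor it was at least 44.8-fold lower in Wnt3A arrays, and the fitted difference was -7.55 ± 0.28 (SE, adjusted p = 0.0190). The Control replicates lay close together. Both Wnt3A values were below the floor, so their closeness carries no information, and the SE and adjusted p rest in part on it.

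The other tested genes of the Ces1 cluster did not pass the threshold. Ces1d, a triacylglycerol hydrolase of liver and fat, read -3.55 and -3.31 in the Wnt3A arrays, against 0.11 and -0.96 in the Control arrays (difference -3.003, adjusted p = 0.106). Ces1h read -5.55 and -6.16 in the Wnt3A arrays, against -2.13 and -3.31 in the Control arrays (difference -3.13, adjusted p = 0.125), with Wnt3A replicate 2 below the floor. Ces1c, the esterase of mouse plasma, read -5.18 and -4.70 in the Wnt3A arrays, against -2.31 and -3.77 in the Control arrays (difference -1.91, adjusted p = 0.297). Ces1e and Ces1g overlapped, with differences of 0.17 and 0.13. Outside it, Ces4a differed by -1.62, Ces2c by -1.09 and Ces2f by -0.72, with both Wnt3A arrays below both Control arrays. Ces2a, known from the gut and liver, overlapped at 0.22, Ces2b differed by 0.21, and Ces5a, known from kidney and epididymis, by -0.01.

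The Ces1f, Ces1c and Ces1d probes are shown because the genes are close copies and their probes may share RNA. The Ces1c and Ces1d probes line up over 34 bases, in capitals, of which 31 are the same, and no other member's probe aligned with that of Ces1f by the same measure. They lie at chr8:96145454-96145513 (Ces1f), chr8:95989836-95993287 (Ces1c) and chr8:96058877-96060162 (Ces1d) on mm8, all in falling order. Ces1h shares 44 of 54 aligned bases with Ces1d and 31 of 40 with Ces1c. The probe of Ces1b, above the floor on no array, shares 49 of 55 with Ces1c and 25 of 29 with Ces1d.
Ces1f: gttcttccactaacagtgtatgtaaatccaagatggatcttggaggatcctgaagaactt
Ces1c: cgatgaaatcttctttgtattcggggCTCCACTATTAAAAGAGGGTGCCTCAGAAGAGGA
Ces1d: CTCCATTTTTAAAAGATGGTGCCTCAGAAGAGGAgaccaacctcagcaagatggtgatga

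**Figure D4:**
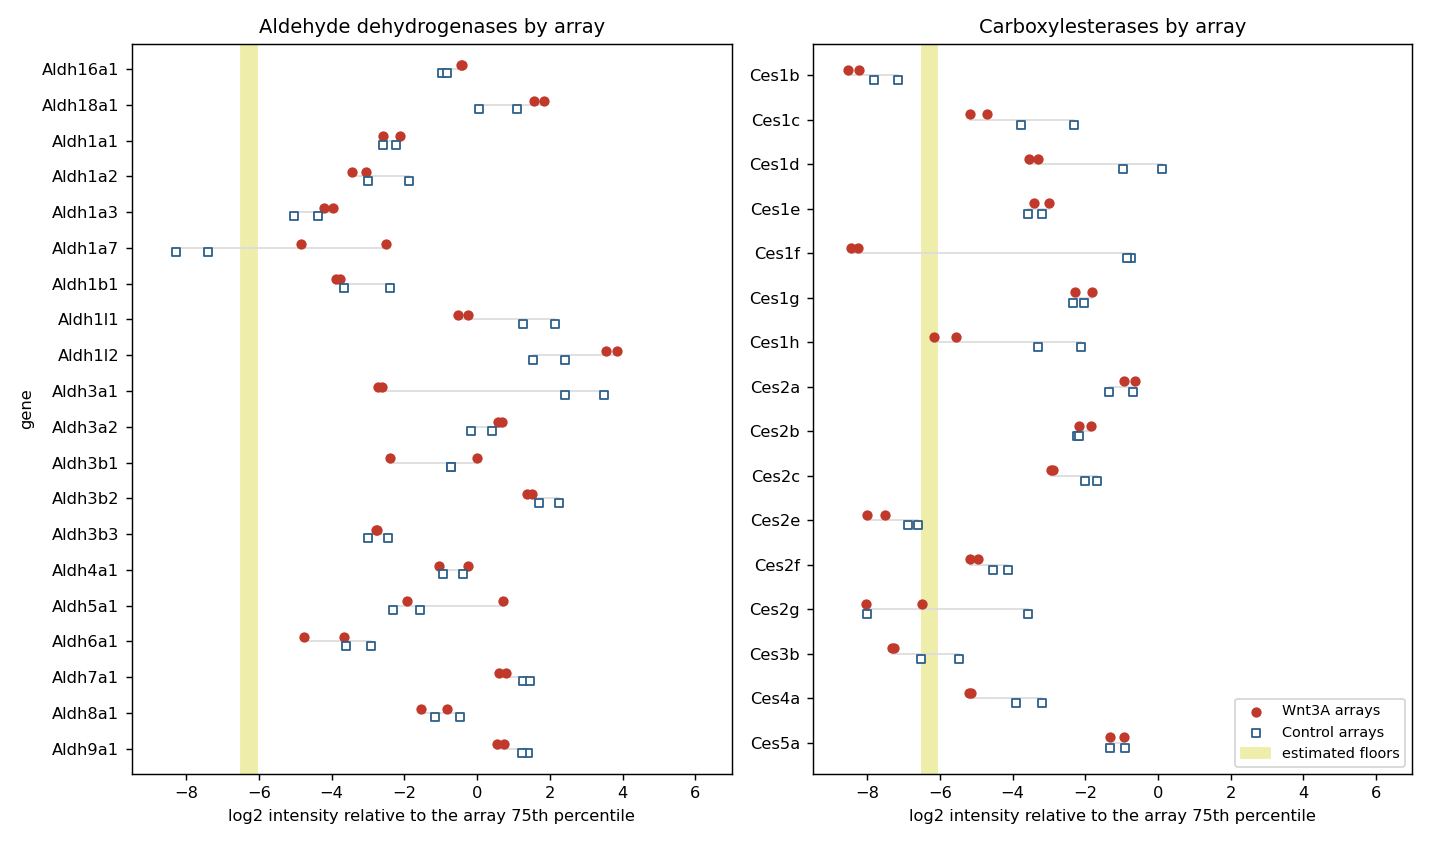
Level of each aldehyde dehydrogenase (left) and carboxylesterase (right) on each array, as log2 intensity relative to the array's 75th percentile (horizontal axis), with filled circles for the 2 Wnt3A arrays, open squares for the 2 Control arrays and a band for the estimated floors. Ces1f has both Wnt3A arrays below the band, and Aldh1a7 both Control arrays.

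Of the 16 genes with more than 1 probe above the floor, 12 had probes of the same sign and 4 (Aldh4a1, Aldh7a1, Gstm7 and Gsto2) of opposite signs. Ces1f, Mgst2, Aldh3a1 and Gstt1, the genes past the adjusted threshold, are each read by 1 probe, so agreement between probes could not be checked for them.

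Many of the genes lie in clusters, so the 3 nearest measured genes on each side of 8 clusters were read from the same fit. Of these 48 neighbours, 17 were below the Control arrays and 5 above, where 23.7% and 21.5% of all genes tested were. By limma 0 of them passed the adjusted threshold while 7 were lower and 3 higher at an unadjusted p under 0.05, where 6.94% and 6.78% of all genes tested were. Their median difference was -0.23. Beside the theta cluster the neighbours ranged from -1.85 (Ddt, the D-dopachrome tautomerase) to -0.06, with a median of -0.28. Beside the Ces1 cluster they ranged from -1.50 to 0.84, with a median of -0.90. The difference between members and neighbours was not tested.

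The promoters of 50 of the 60 genes, from 250 bases before to 50 after the start in RefSeq (GRCm38.p6), were searched on both strands for 3 motif cores. The core of the antioxidant response element, which the factor Nrf2 binds, is TGACNNNGC. It was found in 6 of 50 promoters (12%), against 13.99% of 27025 genes, and all 6 belonged to the 29 genes whose Wnt3A arrays lay below the Control arrays. The core bound by the aryl hydrocarbon receptor, GCGTG, was found in 14 of 50 (28%), against 35.15% of all genes, with 10 in the 29 lower genes and 4 in the other 21. The TCF/LEF core of Wnt target genes, TCAAAG, was found in 8 of 50 (16%), against 18.17%, with 3 in the 29 lower genes and 5 in the other 21. Over the 50 promoters none of the 3 shares was above that of all genes, while the differences between the lower genes and the others were not tested. A pair of the windows with the antioxidant core is shown for genes of the transferase families, the match in capitals. They lie at chr1:21240444-21240492 for Gsta3 and chr6:138140451-138140499 for Mgst1 (GRCm38.p6, plus strand), with the match 121 and 56 bases before the start, and in Mgst1 on the other strand.
Gsta3: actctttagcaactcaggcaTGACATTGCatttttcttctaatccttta
Mgst1: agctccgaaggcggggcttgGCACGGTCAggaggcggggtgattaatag

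Genes of related pathways were read as 6 further lists, none of whose genes was higher at the adjusted threshold and 1 of which, Lpl, was lower. Of 22 target genes of Nrf2, the factor that turns on many transferases, 0 passed by limma, and 10 were lower and 1 higher at an unadjusted p under 0.05, where 6.94% and 6.78% of all genes tested were. The median difference was -0.92, both Wnt3A arrays lay below both Control arrays in 16 and above in 2, where 23.7% and 21.5% of all genes tested did, and the median of all genes tested was -0.01. Nqo1, the quinone reductase used as a marker of Nrf2 activity, read 0.04 and 0.16 in the Wnt3A arrays, against 3.71 and 3.10 in the Control arrays. Its groups were far apart, with a difference of -3.30 ± 0.34 and an adjusted p of 0.0544. It passed under 5 of the alternatives, of which median scaling and no further scaling are the same fit. By limma it did not pass with quantiles (adjusted p = 0.0560), no filter (0.0866), all 4 arrays above the floor (0.0658) or the replicate block (0.108). G6pdx, which supplies the reducing agent NADPH, read 2.38 and 2.36 in the Wnt3A arrays, against 4.16 and 4.42 in the Control arrays (difference -1.92, adjusted p = 0.0997). Nqo1 differed by 0.74 in the scanner files, the opposite sign.

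Of 23 genes of glutathione synthesis and recycling, 6 lay below and 6 above, near the 23.7% and 21.5% of all genes tested, with a median of -0.10. Glrx, the thiol reductase glutaredoxin, differed by -1.85 (adjusted p = 0.163). Ggt7, of the gamma-glutamyltransferase family, read 0.86 and 1.11 in the Wnt3A arrays, against -1.34 and -2.88 in the Control arrays (difference 3.09, adjusted p = 0.155). Of 18 regulators around Nrf2 and the aryl hydrocarbon receptor, 7 lay below and 5 above, set against the same shares of all genes. Keap1, which marks Nrf2 for degradation, differed by -1.06 (adjusted p = 0.325). Ahrr, the repressor of the aryl hydrocarbon receptor, read -4.28 and -5.20 in the Wnt3A arrays and was below the floor in both Control arrays, at least 2.75-fold higher in Wnt3A arrays (adjusted p = 0.0720). That p-value rests in part on the Control values below the floor. The values of these lists ran in both directions.

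Of 22 retinoid genes, 7 lay below and 5 above, with a median of -0.12. The shares of all genes tested to set beside this count and those of the lists that follow were 23.7% below and 21.5% above. Dhrs9, a retinol dehydrogenase, read -5.19 and -6.01 in the Wnt3A arrays, against -1.68 and -1.35 in the Control arrays (difference -4.09 ± 0.41, adjusted p = 0.0503), and Rdh11, another retinol and retinal enzyme, differed by -1.48 (adjusted p = 0.306). Of 32 other enzymes of drug metabolism 13 lay below and 2 above, with a median of -0.29. Its genes with the smallest p were Cyp2j6, a cytochrome P450 (difference -1.46), and Akr1c18, a hydroxysteroid dehydrogenase (difference -1.004). Of 16 other lipid and ester hydrolases 7 lay below and 3 above. Lpl, the lipoprotein lipase of fat cells, read 0.84 and 0.94 in the Wnt3A arrays, against 4.25 and 4.37 in the Control arrays. It fell with a difference of -3.42 ± 0.28 (SE, adjusted p = 0.0363), whereas the scanner files gave -0.09 by processed signal and -0.02 by normexp with quantiles. Lipe, the hormone-sensitive lipase, differed by -2.40 (adjusted p = 0.0851).

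**Figure D5:**
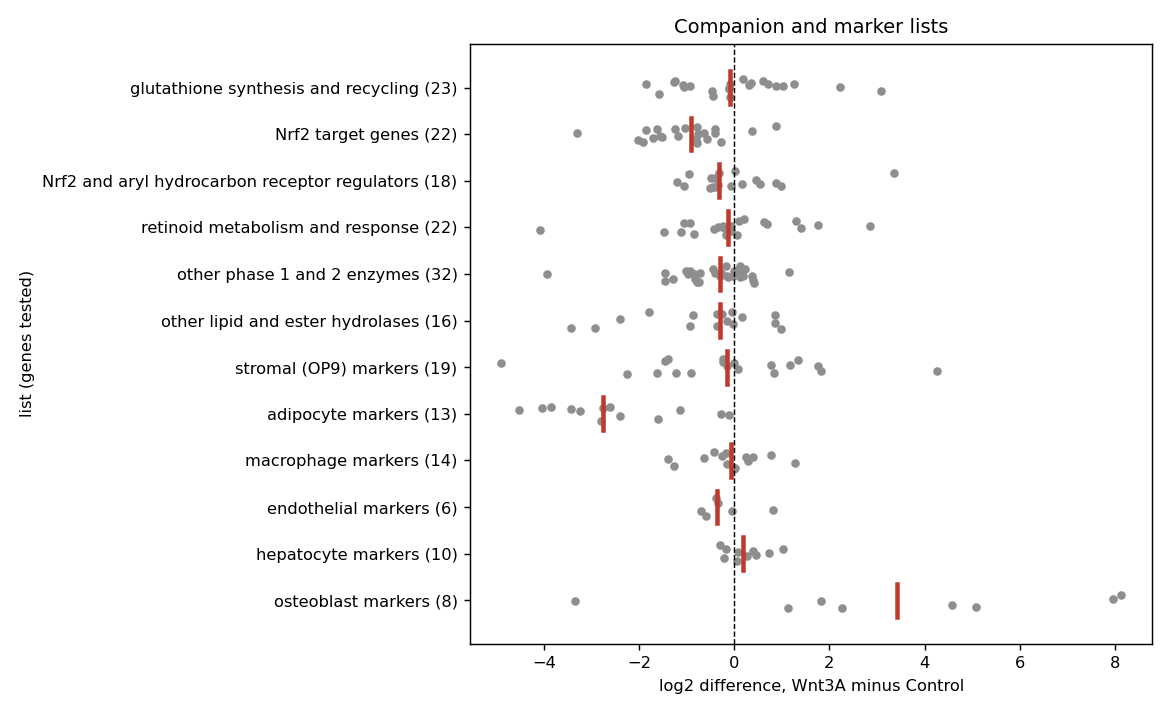
Log2 difference between the means of the Wnt3A and Control arrays (horizontal axis) for each tested gene of 6 lists of related pathways and 6 lists of cell type markers, with a bar at each median. The median is -0.92 for Nrf2 targets, -2.75 for adipocyte markers and 3.41 for osteoblast markers.

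Cell type markers moved with the same comparison. All 13 tested adipocyte markers had a negative difference, with a median of -2.75, where 53.7% of all genes on the array had one. Both Wnt3A arrays lay below both Control arrays for 9, where 23.7% of all genes tested did. Cfd, Retn, Cidec (-0.10) and Slc2a4 (-0.27) overlapped. By limma Adipoq, Plin4, Lpl and Cd36 fell (adjusted p = 0.0485, 0.0273, 0.0363 and 0.0388), where 0.306% of all genes tested did. Summed over all of the list's genes on the array, as for each list here, the intensity of the adipocyte markers relative to the 75th percentile was 27.1 and 19.9 in the Wnt3A arrays and 200.0 and 230.5 in the Control arrays, and of the 14 on the array Lep was above the floor on none. Fabp4 weighs most in that sum, at 4.44 and 3.83 in the Wnt3A arrays and 7.26 and 7.47 in the Control arrays. Of 8 tested osteoblast markers, Sp7, Alpl, Ibsp and Pth1r rose by limma (adjusted p = 0.0421, 0.0253, 0.0267 and 0.0253) and the median was 3.41. Of all genes tested, 0.455% were higher by that rule. Alpl and Ibsp were below the floor on both Control arrays, so their p-values rest in part on values below it. Against the floor they were at least 180.5-fold and 79.2-fold higher in Wnt3A arrays. Spp1, which codes for osteopontin, had a difference of the other sign, at 3.60 and 2.92 in the Wnt3A arrays and 6.55 and 6.66 in the Control arrays (-3.35, adjusted p = 0.0569, singled out after its values were seen). The summed intensity of the osteoblast list was 182.0 and 188.1 in the Wnt3A arrays and 134.3 and 156.4 in the Control arrays. The brightest gene in it was Col1a1 in the Wnt3A arrays and Spp1 in the Control arrays, so the sum says little of the other markers. Col1a1, also a stromal marker, read 7.13 and 7.23 in the Wnt3A arrays, against 5.07 and 5.66 in the Control arrays. Of 10 tested hepatocyte markers 0 passed the adjusted threshold by limma and 0 had an unadjusted p under 0.05, with a summed intensity of 2.01 and 1.71 in the Wnt3A arrays and 2.44 and 1.63 in the Control arrays. The summed intensity of 15 macrophage markers was 3.64 and 2.96 in the Wnt3A arrays and 4.37 and 3.20 in the Control arrays, and that of 10 endothelial markers 3.02 and 2.75 in the Wnt3A arrays and 2.85 and 2.79 in the Control arrays. In such bulk samples fewer cells of a type and less RNA per cell cannot be told apart. The part of adipocyte and osteoblast genes in the differences of the detoxification enzymes was not tested.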

How the data were processed

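Per the labels' protocols, mRNA of OP9 cells was amplified by a global PCR method, labelled with Cy3 and hybridised to 1-colour Agilent mouse arrays, 1 per sample. What this amplification does to the levels was not tested. The table that the authors deposited holds linear intensity values, with a median of 1 in each column, and how it was scaled is not given in the sources used here. The scanner files give intensity per spot from Agilent Feature Extraction 10.5.1.1, per the file headers. The table was the main source and the scanner files an alternative, a choice made after the markers in both had been seen. The members and lists were chosen with earlier results of these data known.

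The detection floor, 4.94 times a column's 1st percentile, used a factor from the scanner flags and is lenient. Intensities were taken to log2 and the array's 75th percentile subtracted. A probe was kept where both arrays of a group exceeded the floor, each gene was given by its brightest kept probe, and limma 3.58.1 (R 4.3.3, lmFit and eBayes, two-sided) was fitted over 22859 genes, with Benjamini-Hochberg adjustment and a threshold of 0.05. Residual degrees of freedom were 2 and prior ones 2.29, and the fit was checked on simulated data. The number of arrays limits the precision. Doubling the floor would divide a bound against it by 2. Members past the threshold, the 6 lowest and 6 highest members, and of each related list the genes past the threshold and the 2 with the smallest p were named by rule, and other names were chosen after their values were seen. Of the 85 probes, 71 took their symbol through an accession and 14 through a symbol, and 18 genes had an older name in the files. Alternatives covered scaling, filter, floor, probe choice, variance model, left-out arrays and the source.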

Additional observations from a re-analysis of the deposited data

How the results depend on the processing

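The main fit gave 4 members lower and 0 higher at the adjusted threshold. Scaling by the median, by quantiles or not at all each gave 4 lower members. The mean of probes and a fit over all kept probes (added after the data were seen) also gave 4 each. Each column already had a median of 1, so median scaling and no further scaling were the same fit. The 4 genes are read by 1 probe each, so the 2 probe choices could not change their differences. A floor 2 times as high gave 5 lower members and a trended, robust variance 6. Lower calls over all genes likewise went from 70 to 104 and 110. Without a filter 2 were left (Aldh3a1 0.0577 and Gstt1 0.0703 no longer passed), and with all 4 arrays above the floor 1 was left (Aldh3a1 0.0504, Gstt1 0.0555, Ces1f not tested). Leaving out any 1 array gave 0 to 0 members and 0 to 0 genes of the related lists, and the remaining sample of a group was then assumed to vary like the other group. The replicate numbers were not shown to pair the samples (correlation of deviations 0.015 over genes). With the replicate number as a block 0 members and 0 related genes passed. In that fit 22 members were lower and 3 higher at an unadjusted p under 0.05, where 13.5% of all genes had one in either direction. In the related lists, where 1 gene was lower, median scaling and no further scaling gave 3, quantiles 2, no filter 0, all 4 arrays above the floor 0, a floor 2 times as high 3, the probe mean 2 and the trended, robust variance 5. Over all genes tested, the fit gave 104 higher and 70 lower genes, and 53 and 29 without a filter, 24 and 16 with all 4 arrays above the floor, 0 and 0 with the block. It gave 113 and 81 with median or no further scaling and 107 and 78 by quantiles. A floor 2 times as high gave 133 and 104, the probe mean 130 and 96. The trended, robust variance gave 130 and 110, and the fit over all kept probes 92 and 55. The scanner files, by processed signal or by normexp with quantiles, gave 0 members and 0 related genes, and the sign was the opposite, in that order, for Aldh1a3 (-1.38, -0.66), Aldh3a1 (1.34, 0.74), Gstt1 (1.36, 1.19), Mgst2 (0.51, 0.19), Dhrs9 (1.27, 0.38), Glrx (1.57, 1.02), Nqo1 (0.74, 0.66) and Rdh11 (0.82, 0.68). These scanner differences include the dim file of Control replicate 1, and the cause of the opposite signs was not tested.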
